A study of Mus musculus with 23 samples.

Results

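The genes described here are the mouse genes whose symbol is Zfp and a number, a name given to genes whose proteins are known or predicted to hold zinc fingers. They were taken from the platform's annotation, as all probe sets with 1 such symbol, and the mRNA decay genes named Zfp36 and Zfp36l, whose fingers are of another type, were left out. The rule found 86 genes with 111 probe sets, of 8251 genes and 12422 probe sets in all. Each gene is given by its probe set with the highest mean over the 23 arrays, so the mean level chose the probe set and is a description only. In 65 genes there was no choice. In the other 21 genes 25 probe sets were not chosen, and the margin on the log2 scale ran from 0.14 in Zfp30 to 3.25 in Zfp94. Of the chosen probe sets 72 have the plain suffix of the platform, and 14 have a suffix that the maker gives to probe sets with relaxed or shared probes, so that near copies of a gene could add to their signal.

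The cells were primary mouse embryonic fibroblasts of embryos labelled e14.5, which the labels describe as C57/BLACK6 and ATF1 -/+ in every group, so no group was wild type. All cultures were starved for 48 h in 1% dialyzed serum and then given 200 µM 4-thiouridine with tritiated cytidine for 2 h, in 1% serum (starved) or 10% serum (treated). 4-Thiouridine is a uridine analogue that cells put into RNA as they make it, and RNA that carries it was captured and is called newly transcribed RNA. The other kinds were total RNA and amplified total RNA, and there were 4 arrays in each of 6 groups except amplified total RNA in 1% serum, with 3. The titles call the arrays biological replicates and do not say whether they were separate cultures or embryos, so p-values measure the spread between these arrays, which may be technical.

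Most Zfp genes encode proteins with C2H2 fingers, in which a pair of cysteines and a pair of histidines hold a zinc ion and the finger reads a few bases of DNA. Many also carry a KRAB domain, which recruits Trim28 (KAP1) and through it the histone methyltransferase Setdb1, and so silences transposable elements and nearby genes. Others on the list have other roles, such as ribosome maturation, RNA binding or ubiquitin transfer. The name is therefore one of protein structure and not of one pathway. In labelling of this kind a short-lived transcript in general has a larger share of new molecules in its pool than a long-lived one.

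Before normalization the medians of single arrays lay between 24.2 and 72.0 for newly transcribed RNA, 20.0 and 54.2 for total RNA, and 7.30 and 75.2 for amplified total RNA, so the values below are quantile normalized. Levels are normalized intensities, and differences are on the log2(intensity + 16) scale, which understates changes of dim probe sets. Arrays of newly transcribed and amplified RNA fell into 2 clusters by whole profile. The first held numbers 1 and 4 of both newly transcribed groups, numbers 1 and 3 of amplified starved and numbers 1 and 4 of amplified treated RNA, and the second held the others with all total RNA arrays. The 3′ probes of the GAPDH control exceeded its 5′ probes by 2.16 ± 0.65 (SD, n = 8) on the log2 scale in newly transcribed and by 1.55 ± 0.60 (SD, n = 7) in amplified RNA, against -0.20 ± 0.11 (SD, n = 8) in total RNA. Newly transcribed and amplified RNA were thus closer in this respect than either was to total RNA, and the part of it in the results below was not tested. All 12 fibroblast markers were measured, with mean intensities from 23.2 for Vim, whose probe set was dim in this fibroblast culture, to 4643. All 10 macrophage markers were measured too, between 17.4 and 1301, while the 5 markers of pluripotent cells lay between 2.83 and 21.1. Zfp42 (Rex1), itself a marker of pluripotent cells, was the dimmest of the 86 genes, with 0.774 to 7.66 on all arrays.

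All Zfp genes whose chosen probe set passed between newly transcribed RNA and either kind of total RNA, in the fits without a block, were higher in newly transcribed RNA. Against amplified total RNA in 1% serum, 12 of 86 genes were called higher and 0 lower (limma, adjusted p below 0.05), where 2.42% of all 12422 probe sets were called higher and 3.33% lower. Their median difference was 0.73, against -0.01 over all probe sets, and 77 of 86 were positive. In 10% serum 10 were called higher and 0 lower, where all probe sets gave 2.60% and 4.66%, with a median of 0.64 against 0.02 and 78 positive. Against unamplified total RNA 43 genes were called higher in 1% serum and 31 in 10% serum, and 0 lower in each, where all probe sets gave 14.2% and 12.2% higher and 13.2% and 11.6% lower. Medians were 0.65 and 0.68. The comparisons of one serum condition share the newly transcribed arrays, so they are not independent of each other. In bulk RNA, fewer cells of a type and less RNA per cell cannot be told apart.

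**Figure D1:**
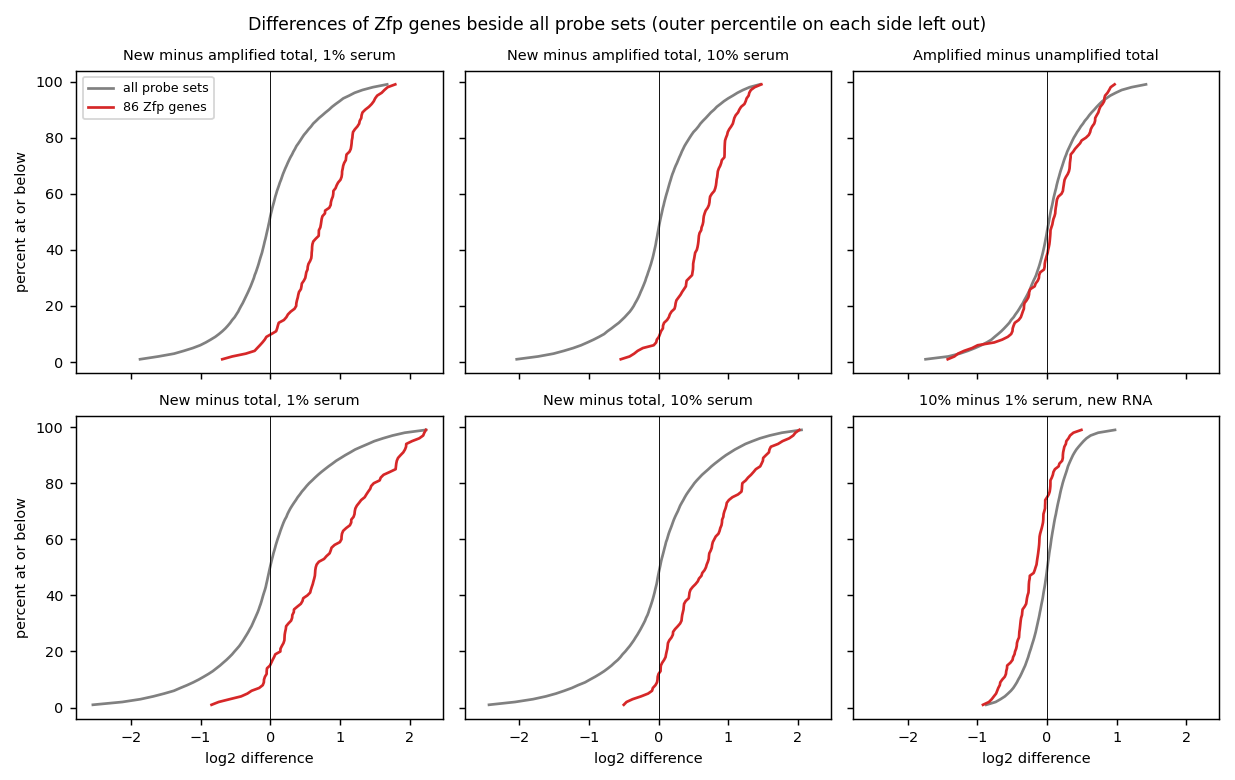
Each panel gives the percent of features at or below a log2 difference (x axis), in red for the 86 Zfp genes and in grey for all 12422 probe sets, without the outer percentile on each side. The red curve lies to the right of the grey one in the 4 panels of newly transcribed against total or amplified total RNA, close to it for amplified against unamplified total RNA, and to the left for serum in newly transcribed RNA, where the median was -0.16.

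The excess of calls was present among brighter and dimmer genes. Among the 44 genes above the median of all probe sets by mean level, 8 (18.2%) were called higher against amplified RNA in 1% serum, where 4.04% of all probe sets above the median were. Among the 42 below the median it was 4 (9.52%) against 0.805%. Against total RNA in 1% serum it was 56.8% against 22.3% above the median and 42.9% against 6.13% below it. In 15 of the 86 genes the mean intensity was under the 16 added before the logarithm, and such genes can show little difference on this scale.

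The count of calls against amplified RNA depended on the scaling and on how the array clusters were treated. With values as deposited, without quantile normalization, 0 genes were called by limma in 1% serum and 0 in 10% serum, where all probe sets also gave 0. Of the 86 genes 47 and 3 had an unadjusted p under 0.05 there, beside 1848 and 771 of all probe sets. With 1 in place of 16 added before the logarithm, 7 and 5 were called. In 10% serum, where the newly transcribed and amplified arrays paired by replicate number, the number as a block gave 28 genes called higher (9.01% of all probe sets) and Zfp106 lower. Within the second cluster alone 35 genes were called higher in 10% serum, beside 11.5% of all probe sets. Within the first cluster 0 were called in either serum condition, where all probe sets also gave 0. In 1% serum the second cluster holds a single amplified starved array, number 2, so no count is given for it. The medians within the 2 clusters were 0.76 and 0.67 in 1% serum, and 0.60 and 0.62 in 10% serum. These fits rest on very few arrays in each group. Without the first amplified starved array 7 genes were called in 1% serum. In 10% serum 5 were called without amplified treated array 3 or newly transcribed treated array 2, and 6 without amplified treated array 2 or newly transcribed treated array 3 or 4.

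Zfp105, Zfp622, Zfp639, Zfp746, Zfp821 and Zfp90 were called higher in newly transcribed RNA in all 4 comparisons, against amplified and unamplified total RNA in both serum conditions. Another 5, Zfp213, Zfp51, Zfp53, Zfp942 and Zfp954, were called in 3 of them, both groups being picked by this count, 23 in 2, 11 in 1 and 41 in none, while 63 were positive in all 4. The comparisons share arrays, and these counts were made for the Zfp genes alone. Without a share over all probe sets they are a description only. Zfp639 encodes a C2H2 protein. Its newly transcribed arrays read 569, 445, 480 and 544 in 1% serum and 416, 462, 389 and 372 in 10% serum. Amplified total RNA read 102, 155 and 217 in 1% and 111, 143, 131 and 185 in 10% serum. Unamplified total RNA read 212, 126, 174 and 134, then 122, 151, 120 and 112. Every newly transcribed array was thus above every other array of this gene. The difference from amplified RNA was 1.64 ± 0.22 in 1% serum (3.12-fold, limma adjusted p = 0.00126) and 1.44 ± 0.20 in 10% serum (adjusted p = 0.000975), and from total RNA it was 1.59 ± 0.15 and 1.58 ± 0.15.

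Zfp622 acts in the maturation of the large ribosomal subunit. It read 267, 316, 349 and 296 in newly transcribed RNA in 1% serum and 303, 278, 276 and 346 in 10% serum. In amplified RNA it read 84.7, 95.6 and 170, then 108, 127, 95.0 and 136, and in total RNA 141, 172, 140 and 228, then 157, 153, 137 and 209. The newly transcribed arrays did not overlap with the others, and the gene stood nearly level between serum conditions in each kind. Its difference from amplified RNA was 1.33 ± 0.20 in 1% serum (2.52-fold, limma adjusted p = 0.00245) and from total RNA 0.81 ± 0.16 (1.76-fold, adjusted p = 0.00177). A second, dimmer probe set of Zfp622 gave 0.31 against total RNA in 1% serum, without a call. In 10% serum it gave 0.63 and was called (limma adjusted p = 0.0109).

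Zfp105, a C2H2 gene, read 454, 459, 605 and 655 in newly transcribed RNA in 1% serum and 441, 452, 369 and 532 in 10% serum. Amplified RNA read 152, 148 and 261, then 219, 153, 99.0 and 252, and total RNA 79.0, 134, 133 and 128, then 69.8, 119, 122 and 114. No array of newly transcribed RNA fell to the level of any other array. The difference from amplified RNA in 1% serum was 1.49 ± 0.28 (2.80-fold, limma adjusted p = 0.00847), and from total RNA 2.06 ± 0.20 (4.18-fold, adjusted p = 5.83e-06).

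Zfp746 (PARIS), a KRAB protein that the ubiquitin ligase parkin targets and that represses the gene of PGC-1alpha, read 143, 129, 176 and 111 in newly transcribed RNA in 1% serum, against 57.4, 28.5 and 38.9 in amplified RNA. The groups did not overlap, and the difference was 1.45 ± 0.24 (2.73-fold, limma adjusted p = 0.00376). Zfp90, a KRAB gene, read 197, 306, 195 and 214 against 48.6, 135 and 82.7, a difference of 1.28 ± 0.26 (2.43-fold, adjusted p = 0.0107). Zfp821 read 96.4, 136, 129 and 174 against 54.4, 62.0 and 80.0, a difference of 0.87 ± 0.18 (1.82-fold, adjusted p = 0.0134). Zfp90 and Zfp821 were also higher in amplified than in unamplified total RNA, so that their differences from unamplified total RNA were larger, at 1.95 ± 0.18 and 1.81 ± 0.16 in 1% serum. Zfp930 was the 1 other gene called in both serum conditions against amplified RNA.

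**Figure D2:**
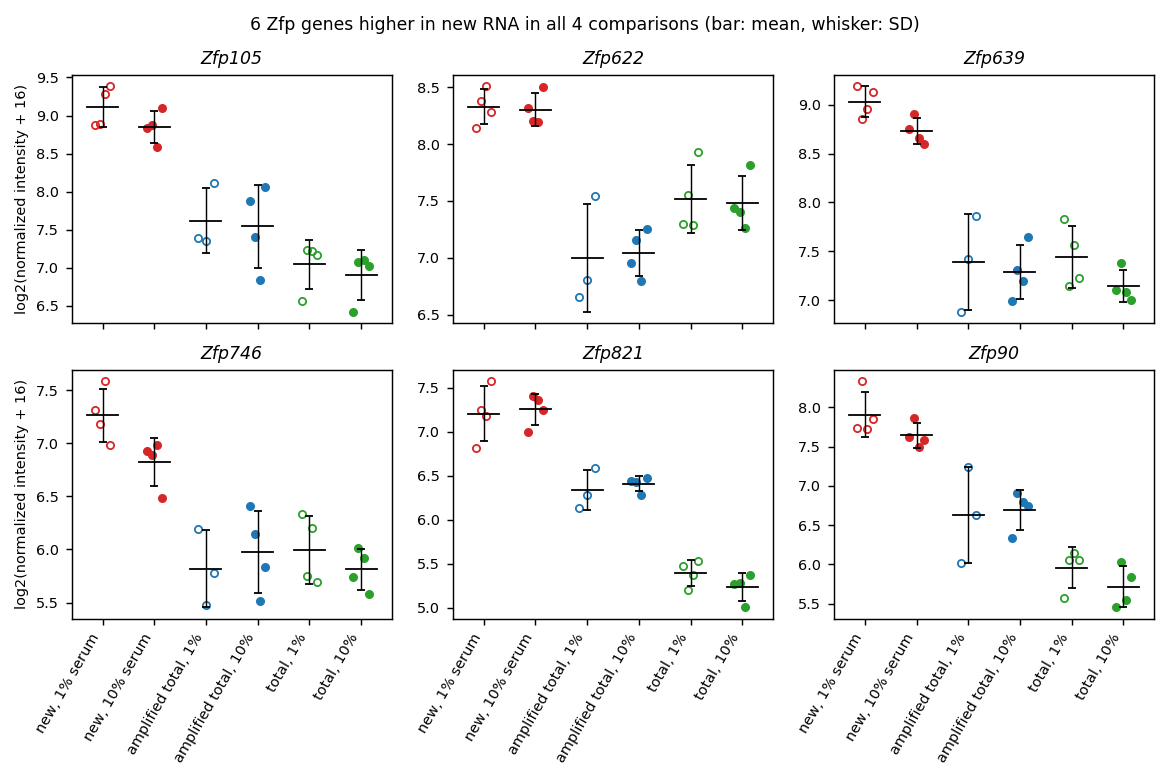
Values of the 6 genes by group, as log2(normalized intensity + 16), 1 point per array, open for 1% and filled for 10% serum, with the mean as a bar and the SD as a whisker (n = 4, or 3 for amplified total RNA in 1% serum). All newly transcribed arrays of Zfp639 and Zfp622 lie above their amplified and total RNA arrays, and Zfp821 steps up from total over amplified to newly transcribed RNA.

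The promoter windows of 3 of these genes are shown for what the set shares in sequence, with Zfp943 and Zfp30, which were the lowest of the 86 with serum in newly transcribed RNA. Each runs from 250 bases before to 50 bases after the RefSeq start (build GRCm38.p6, written in the direction of transcription). The windows are chr3:32510342-32510641 for Zfp639, chr9:122922828-122923127 for Zfp105, chr15:25984116-25984415 for Zfp622, chr17:21962309-21962608 for Zfp943 and chr7:29783718-29784017 for Zfp30, all on the plus strand. Capitals mark the GC box, the CCAAT box, the TATA box and the ETS motif on either strand, whose letters follow the sequences.
Zfp639: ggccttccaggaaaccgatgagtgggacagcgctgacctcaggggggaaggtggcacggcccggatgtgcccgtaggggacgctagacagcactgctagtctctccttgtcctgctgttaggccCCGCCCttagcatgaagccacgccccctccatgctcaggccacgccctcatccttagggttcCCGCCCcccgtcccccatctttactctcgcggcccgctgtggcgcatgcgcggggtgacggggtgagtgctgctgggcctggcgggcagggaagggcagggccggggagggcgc
Zfp105: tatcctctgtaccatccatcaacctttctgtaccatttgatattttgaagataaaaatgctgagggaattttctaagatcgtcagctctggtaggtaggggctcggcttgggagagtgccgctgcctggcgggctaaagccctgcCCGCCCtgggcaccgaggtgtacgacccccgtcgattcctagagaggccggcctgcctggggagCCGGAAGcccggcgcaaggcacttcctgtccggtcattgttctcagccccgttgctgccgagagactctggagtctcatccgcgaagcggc
Zfp622: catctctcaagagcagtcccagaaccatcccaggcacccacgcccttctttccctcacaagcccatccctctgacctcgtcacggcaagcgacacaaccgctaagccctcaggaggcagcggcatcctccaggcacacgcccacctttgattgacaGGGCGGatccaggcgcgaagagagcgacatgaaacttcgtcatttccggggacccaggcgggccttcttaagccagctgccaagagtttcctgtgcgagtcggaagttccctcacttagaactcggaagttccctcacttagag
Zfp943: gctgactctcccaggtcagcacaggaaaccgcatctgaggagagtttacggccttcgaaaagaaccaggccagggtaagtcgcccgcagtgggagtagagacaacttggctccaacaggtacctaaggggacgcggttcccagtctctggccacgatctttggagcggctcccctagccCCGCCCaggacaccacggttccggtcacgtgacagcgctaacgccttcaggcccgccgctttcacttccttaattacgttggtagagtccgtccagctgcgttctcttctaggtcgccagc
Zfp30: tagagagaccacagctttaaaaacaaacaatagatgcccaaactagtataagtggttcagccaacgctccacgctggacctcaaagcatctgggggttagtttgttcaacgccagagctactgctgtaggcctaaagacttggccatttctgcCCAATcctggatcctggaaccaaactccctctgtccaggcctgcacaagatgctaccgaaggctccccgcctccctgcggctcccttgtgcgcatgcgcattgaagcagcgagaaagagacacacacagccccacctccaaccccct

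The RefSeq table held windows for 71 of the 86 genes, 92 windows in all. Their median number of CpG dinucleotides was 18, against 13 in the 21263 windows of protein-coding genes, and 77.2% against 56.8% held 10 or more. GGGCGG, the GC box, was in 53.3% of the Zfp windows and 46.2% of the coding windows. The CCAAT box was in 44.6% and 38.2%, the ETS motif CCGGAAG in 16.3% and 11.6%, and the TATA box TATAAA in 7.61% and 12.6%. TGACG, the core of the site of CREB and ATF1, was in 30.4% and 23.6%, and the full TGACGTCA, which contains it, in 0% and 2.23%. Letters were searched on both strands, and a match is a description of sequence. The 47 windows of genes called higher in newly transcribed RNA in at least 1 comparison and the 45 windows of the other Zfp genes had the same median of 18 CpG. Of these windows 83.0% and 71.1% held 10 or more CpG, and 2.13% and 13.3% held the TATA box.

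Genes of the called set varied in size of difference between the total RNA comparisons. In 1% serum the largest differences from unamplified total RNA were those of Zfp37 (2.24 ± 0.52, limma adjusted p = 0.00489), Zfp131, a BTB zinc finger gene (2.23 ± 0.37, adjusted p = 0.00046), and Zfp281, whose protein binds GC-rich promoters (2.20 ± 0.66, adjusted p = 0.0213). Zfp292, Zfp105 and Zfp472 followed at 2.19 ± 0.72, 2.06 ± 0.20 and 1.95 ± 0.37. The second probe set of Zfp37 gave 0.84 there and was called (limma adjusted p = 0.0498), and that of Zfp292 gave 0.30 without a call. Zfp281 read 1980, 281, 304 and 834 in newly transcribed RNA against 143, 143, 87.3 and 121 in total RNA. The groups did not overlap, but arrays 1 and 4, of the first cluster, were far above arrays 2 and 3. The difference from amplified RNA, 1.86 ± 0.93, did not pass (adjusted p = 0.314).

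In 10% serum the largest were Zfp37 (2.02 ± 0.52), Zfp821 (2.02 ± 0.16), Zfp105 (1.94 ± 0.20), Zfp90 (1.93 ± 0.18), Zfp568 (1.80 ± 0.52) and Zfp207 (1.73 ± 0.20). The second probe set of Zfp37 gave 1.11 there and was called, and that of Zfp568 gave 0.11 without a call. Zfp568 is a KRAB gene known to silence a promoter of Igf2, and Zfp207 (BuGZ) binds Bub3 at the spindle. Zfp207 read 1161, 1155, 945 and 1563 in newly transcribed against 385, 404, 258 and 362 in total RNA. That gap was wide beside the spread (limma adjusted p = 2.79e-05), and it was smaller against amplified RNA, 0.95 ± 0.32 (adjusted p = 0.0964; with the replicate block 0.0194). Against amplified RNA in 10% serum the largest among called genes after Zfp639 were Zfp282, a KRAB gene, at 1.30 ± 0.35, Zfp105 at 1.30 ± 0.26, Zfp622 at 1.26 ± 0.19, Zfp51 at 1.25 ± 0.29 and Zfp213 at 1.09 ± 0.28. Zfp281 at 1.66 ± 0.86 (adjusted p = 0.318) and Zfp644 at 1.35 ± 0.61 (adjusted p = 0.24) had larger values than Zfp282 and did not pass. In 1% serum Zfp943 had 1.64 ± 0.42 (adjusted p = 0.0355).

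**Figure D3:**
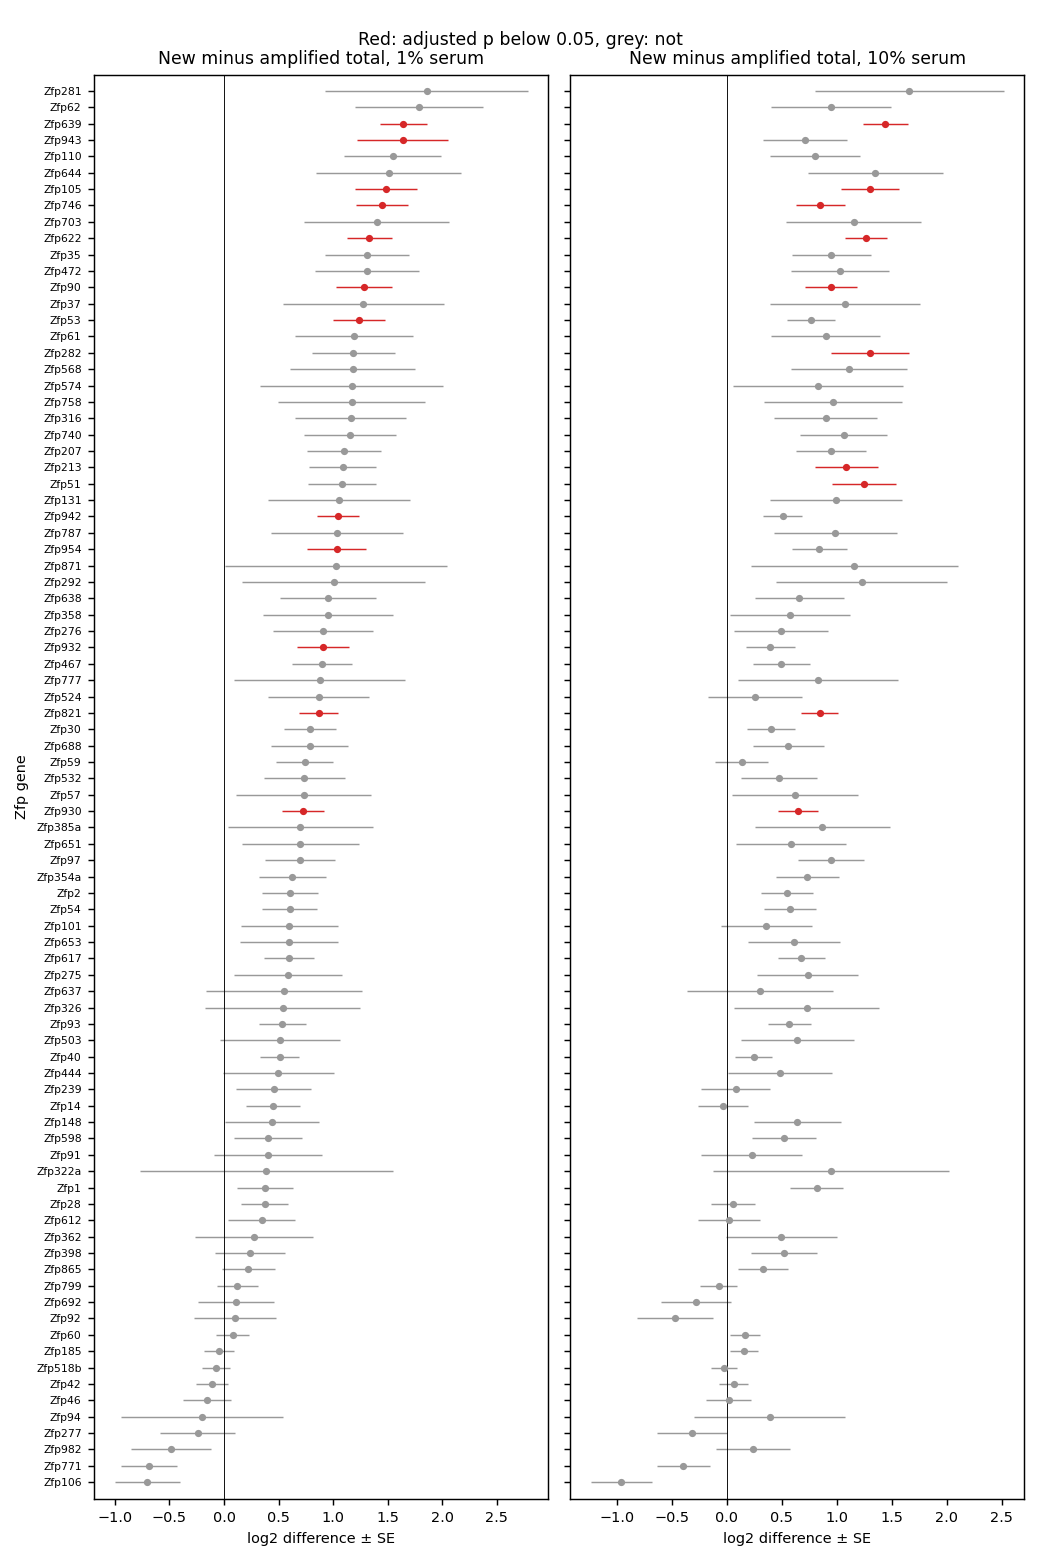
Log2 difference of newly transcribed minus amplified total RNA for each Zfp gene in 1% serum (left) and 10% serum (right), as points with the SE of the fit, in red where the adjusted p was below 0.05. Of the 86 genes 77 lie to the right of 0 in 1% serum and 78 in 10% serum, and Zfp106 is the lowest in both.

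Genes of other roles were among those that passed and those that did not. Zfp91, an E3 ubiquitin ligase of non-canonical NF-kB signalling, read 2405, 1048, 1020 and 1571 in newly transcribed RNA in 1% serum against 632, 484, 604 and 455 in total RNA. The difference of 1.37 ± 0.34 passed (limma adjusted p = 0.00798), while that from amplified RNA, 0.40 ± 0.50, did not (adjusted p = 0.748). Of its other probe sets one gave 1.17 against total RNA and was called and one gave 0.02. Zfp638, which takes part in silencing by the HUSH complex, was 1.31 ± 0.34 above total RNA in 1% serum (adjusted p = 0.0104), and Zfp326, of the DBIRD complex of elongation and splicing, 1.44 ± 0.48 (adjusted p = 0.038). Dimmer probe sets of Zfp638 and Zfp568 gave 0.28 and 0.10 there, without a call. Zfp148, a factor of GC-rich promoters, did not differ beyond its error, at 0.06 ± 0.24. For Zfp57, a KRAB gene of imprint maintenance, the difference was 0.46 ± 0.53.

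A few genes had lower values in newly transcribed RNA, and none of their chosen probe sets passed in the fits without a block. Zfp106, an RNA-binding protein gene, was -0.96 ± 0.28 against amplified RNA in 10% serum (limma adjusted p = 0.0541), with 183, 76.7, 110 and 163 against 320, 249, 248 and 236, groups that did not overlap. With the replicate block, where these arrays paired, it was called lower (adjusted p = 0.0398). The other probe sets of Zfp106 had the opposite sign without a call, at 0.05 and 0.21 in 10% serum and 0.31 and 0.22 in 1% serum. Zfp385a, which encodes the RNA-binding protein Hzf, was -1.14 ± 0.54 against total RNA in 1% serum (adjusted p = 0.141). Zfp358 and Zfp444 followed there, at -0.79 and -0.72. Against amplified RNA in 1% serum the lowest were Zfp106 at -0.70, Zfp771 at -0.69 and Zfp982 at -0.49.

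**Figure D4:**
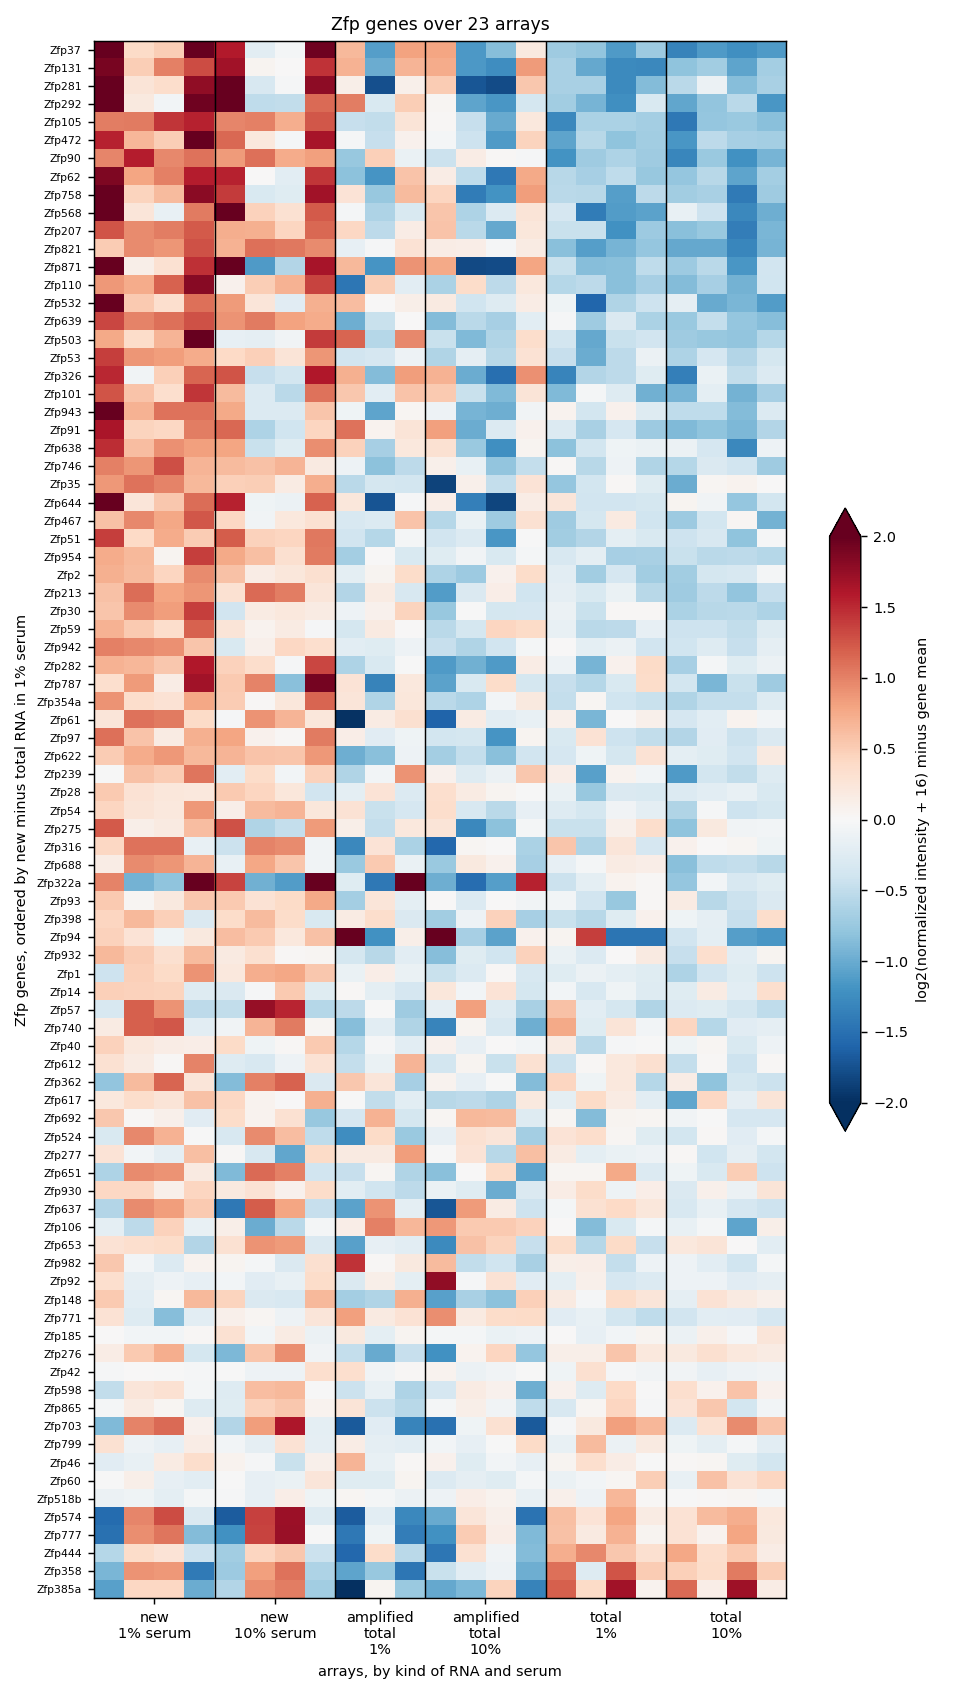
Each row is a Zfp gene and each column an array, in the order of replicate numbers within the 6 groups, coloured by log2(normalized intensity + 16) minus the mean of the gene. Rows are ordered by newly transcribed minus total RNA in 1% serum, from Zfp37 to Zfp385a. Rows near the top are high in newly transcribed RNA, with numbers 1 and 4 darkest in many, and rows near the bottom are low in those same arrays.

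The heat map shows how far single genes followed the array clusters. In newly transcribed RNA 22 of the 86 genes lay higher in all 4 arrays of the first cluster than in all of the second, and 17 lay lower. Of all probe sets 13.6% lay higher and 14.4% lower in this way. The clusters were made from the profiles of all probe sets, so such separation follows in part from how they were made and is a description. Zfp322a (2.83), Zfp871 (2.44), Zfp292 (2.43) and Zfp281 (2.26) had the largest differences upward, and Zfp574 (-2.27), Zfp777 (-2.17), Zfp358 (-1.83) and Zfp57 (-1.81) downward. These were picked after their values were seen. Zfp57 read 50.5, 37.9, 81.2 and 67.1 in the 4 newly transcribed arrays of the second cluster and 3.49 to 7.20 in those of the first. The clusters hold arrays of both serum conditions, so they do not follow the treatment, and what made them was not tested.

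Amplified and unamplified total RNA differed in both directions. Between amplified and unamplified total RNA 8 genes were called higher and 8 lower (9.30% each), where all probe sets gave 9.83% and 8.99%. The median was 0.08 beside 0.03. With arrays scaled to 1 median in place of quantile normalization the split was 11 higher and 6 lower. The largest upward among called genes were Zfp821 (1.06 ± 0.10), Zfp106 (0.89 ± 0.20), Zfp91 (0.84 ± 0.23), Zfp532, Zfp90 and Zfp207, and downward Zfp385a (-1.66 ± 0.42), Zfp358 (-1.38 ± 0.23), Zfp703, a corepressor (-1.31 ± 0.33), Zfp574 (-1.26 ± 0.28), Zfp444 (-1.09 ± 0.30) and Zfp777 (-1.02 ± 0.28). Probe sets of one gene disagreed here. A further probe set of Zfp106 was called lower (-1.54, limma adjusted p = 0.000163), and those of Zfp292 and Zfp777 had the opposite sign without a call. In the 4 comparisons of newly transcribed RNA, 0 unchosen probe sets of called genes had the opposite sign, of 12 and 7 against total and 2 and 2 against amplified RNA. Against total RNA in 1% serum those of Zfp30, Zfp37, Zfp61, Zfp93 and a brighter one of Zfp91 were called too. Those of Zfp292, Zfp503, Zfp54, Zfp568, Zfp622, Zfp638 and a dimmer one of Zfp91 gave 0.02 to 0.43 without a call. Those of Zfp622 and Zfp930 were not called against amplified RNA. Zfp106 was not among those called genes, and the same further probe set was called lower against total RNA in 1% serum (-1.30, limma adjusted p = 0.00014) and in 10% serum (-1.42, adjusted p = 7.3e-05), where the chosen one stood at 0.20 and -0.08.

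Few Zfp genes differed between serum conditions past the threshold, and those did so with the replicate block. In newly transcribed RNA 0 of 86 were called by limma, where all probe sets also gave 0%, and 9 genes had an unadjusted p under 0.05, beside 800 of all probe sets. The genes leaned downward: the median was -0.16 in 10% against 1% serum, beside 0.01 over all probe sets, and 64 of 86 were negative. The newly transcribed arrays paired by replicate number. Their numbers 1 and 4 were in the first cluster and the others in the second. The pairing can thus not be told apart from the clusters. With the number as a block, Zfp30, Zfp503 and Zfp943 were called lower and 0 higher, which is 3.49% of the genes, beside 1.74% of all probe sets called in either direction. Without any one of the 4 numbers the block gave 0 calls among the Zfp genes, and 0 to 25 among all probe sets. With the array cluster as the block, 0 Zfp genes were called (smallest limma adjusted p = 0.124). Of all probe sets 30 were called higher and 15 lower in that fit.

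Zfp30, a KRAB gene, read 53.3, 75.7, 68.7 and 108 in 1% serum and 20.4, 37.1, 39.1 and 37.0 in 10% serum in newly transcribed RNA. The groups did not overlap, which held downward for 4 Zfp genes (Zfp30, Zfp467, Zfp59 and Zfp942) and for 1.70% of all probe sets. The difference was -0.89 ± 0.22 (limma adjusted p = 0.471), and with the block the SE was 0.14 (adjusted p = 0.0416). In total RNA it read 27.7, 19.0, 32.2 and 32.2, then 14.6, 16.1, 16.5 and 14.9, again with no overlap, a difference of -0.46 ± 0.12 that was not called (adjusted p = 0.529, with the block 0.268). A second probe set of Zfp30, nearly as bright, gave -0.11 in newly transcribed RNA. The probe sets of this gene thus differed in size.

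Zfp943 read 190, 56.2, 78.4 and 78.7 in 1% serum and 59.4, 21.1, 20.8 and 49.2 in 10% serum, lower in each pair of arrays while the groups overlapped. Its difference was -1.08 ± 0.38 (limma adjusted p = 0.673), with an SE of 0.18 and an adjusted p of 0.0456 with the block. Zfp503, a corepressor of the NET family, read 41.4, 27.8, 38.1 and 150 and then 14.3, 13.9, 16.2 and 72.9. Array 4 was the highest in both serum conditions, and the difference was -0.78 ± 0.51 (adjusted p = 0.945), with 0.12 and 0.0416 with the block. A second probe set of Zfp503 gave -0.13. In total RNA both were dim, Zfp503 at 0.574 to 10.2 and Zfp943 at 8.37 to 31.1.

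**Figure D5:**
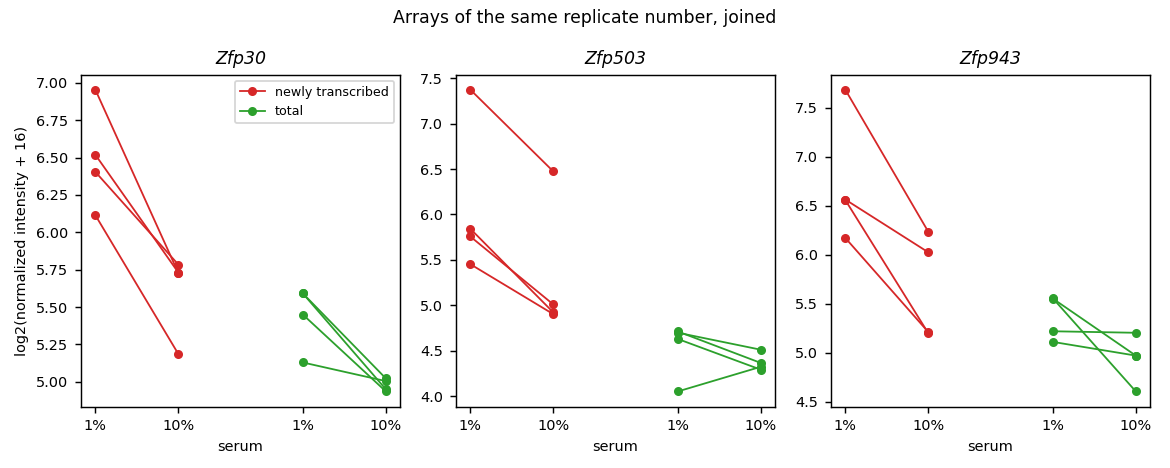
Zfp30, Zfp503 and Zfp943 in 1% and 10% serum as log2(normalized intensity + 16), red for newly transcribed and green for total RNA, with arrays of the same replicate number joined. All 12 lines of newly transcribed RNA fall, and in total RNA the 4 lines of Zfp30 and of Zfp943 fall while those of Zfp503 run both ways.

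Across pairs the lean downward was seen in newly transcribed RNA for each number, with 62, 58, 57 and 49 of 86 genes lower in numbers 1 to 4, where 48.3% to 50.9% of all probe sets were. In total RNA it was 71, 40, 63 and 48, where 51.5% to 52.5% of all probe sets were lower. The lean was thus not seen in number 2, and number 4 was near all probe sets, with a median of -0.03 beside -0.01. In amplified RNA 46, 50 and 51 genes were lower in numbers 1 to 3, beside 48.9% to 51.0% of all probe sets, and number 3 did not pair. In newly transcribed RNA 30 genes (34.9%) were lower in every pair, beside 1801 of all 12422 probe sets, and 7 (8.14%) higher, beside 1702. In total RNA 16 (18.6%) were lower in every pair beside 1304 of all probe sets, and 2 (2.33%, Zfp281 and Zfp598) higher, beside 1077. The 11 genes lower in every pair of both newly transcribed and total RNA were Zfp105, Zfp207, Zfp277, Zfp30, Zfp37, Zfp467, Zfp612, Zfp688, Zfp758, Zfp90 and Zfp943, picked by this pattern. Patterns over both kinds were not counted among all probe sets, so they are a description only. The 1 gene higher in every pair of both was Zfp598, a ubiquitin ligase that acts on collided ribosomes, at 0.25 ± 0.27 and 0.21 ± 0.17.

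In total RNA 0 Zfp genes were called with serum (limma), with or without the block, where 0.121% of all probe sets were called without and 0.483% with it. The lowest were Zfp688 (-0.62 ± 0.12, adjusted p = 0.239), Zfp637 (-0.53 ± 0.12, adjusted p = 0.376) and Zfp30, whose groups did not overlap, where 1.43% of all probe sets were lower without overlap. Zfp688 read 64.7, 71.5, 84.8 and 83.2 in 1% serum and 34.7, 47.2, 48.7 and 45.2 in 10% serum. In amplified RNA 0 were called, where all probe sets gave 0%, and 175 of all probe sets had an unadjusted p under 0.05. Zfp292 was lowest there (-1.03 ± 0.42) and Zfp358 highest (0.66 ± 0.28). The largest upward values in newly transcribed RNA were Zfp777 (0.55 ± 0.82), Zfp385a (0.48 ± 0.56) and Zfp653 (0.33 ± 0.33), each within or near its error, and in total RNA Zfp281 (0.32 ± 0.20), Zfp568 and Zfp131.

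The serum response of newly transcribed RNA was also tested against that of the other kinds. Its difference from the response in total RNA was called in 0 Zfp genes and in 0% of all probe sets (limma; 299 with an unadjusted p under 0.05), with a median of -0.04. Zfp94 had the largest value upward (0.61 ± 0.69) and Zfp292 downward (-0.71 ± 1.01). Against amplified RNA it was 0 and 0% too (201 unadjusted), with a median of -0.13, from -0.92 ± 0.57 in Zfp943 to 0.73 ± 0.50 in Zfp982.

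By RefSeq order 22 of the 86 genes lie next to another Zfp gene of the set, in 10 runs, and these were picked by position. Of these 22 genes 10 (45.5%) were called above total RNA in 1% serum, beside 43 of the 86. In 2 runs all genes were called, in 4 some and in 4 none. In the run of Zfp54, Zfp51 and Zfp53 all were called above total RNA in 1% serum, by 0.66, 1.20 and 1.49. Zfp942 and Zfp943 were called above amplified and total RNA in 1% serum. Both had lower values with serum in newly transcribed RNA, Zfp942 at -0.72 ± 0.19 (limma adjusted p = 0.528, with the block 0.107). In the run of Zfp777 and Zfp746, Zfp746 was called above total RNA (1.27 ± 0.18) and Zfp777 stood at -0.47. Zfp282 was called (1.02) and its neighbour Zfp398 was not (0.61), and likewise Zfp568 (1.84) and Zfp14 (0.46). Such neighbours can be close in sequence, and the chosen probe sets of Zfp51 and Zfp53 carry the suffix of shared probes, so their values may hold signal of each other.

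Genes of partners of KRAB zinc finger proteins were called in both directions. Against total RNA in 1% serum their share was near that of all probe sets. Of 30 genes of the Trim28 silencing machinery 20 were measured. With serum 0 of 20 were called in any kind of RNA, and 0 were called between newly transcribed and amplified RNA without a block, with a median of 0.33 in 1% serum. With the replicate block in 10% serum, where these arrays paired, 4 were called higher and 1 lower. In that fit 9.01% of all 12422 probe sets were called higher, and 1209 of them lower. Against total RNA in 1% serum 3 were called higher and 3 lower, beside 27.4% of all probe sets called in either direction. Setdb1, the methyltransferase, was higher (1.39 ± 0.19, limma adjusted p = 9.96e-05), as were the remodeller Smarcad1 (2.16 ± 0.70, adjusted p = 0.0332) and the histone methyltransferase Suv39h2 (0.75 ± 0.21). Mbd3, of the NuRD complex, was lower (-1.30 ± 0.39, adjusted p = 0.0228), as were the deacetylase Hdac1 (adjusted p = 0.0356) and the DNA methyltransferase Dnmt1 (-0.81 ± 0.22). Trim28 itself was at -0.79 ± 0.66 (adjusted p = 0.431). Between amplified and unamplified total RNA Setdb1 (0.84), Suv39h2 (0.40) and Dnmt1 (-0.85) were called in the same directions, and Smarcad1, Mbd3 and Hdac1 were not. Against amplified RNA in 1% serum Setdb1, Suv39h2 and Dnmt1 stood at 0.53, 0.07 and 0.20. In 10% serum Setdb1 was called above total RNA and Atrx and Dnmt1 below it, beside 12.2% and 11.6% of all probe sets. Suv39h2 and Atrx had mean intensities of 14.1 and 12.5, under the 16 added.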

How the data were processed

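RNA was measured on 23 arrays in 6 groups of 3 or 4, grouped by their titles, which alone tell total from amplified total RNA. The authors deposited linear intensities, 1 for each Affymetrix probe set on each array; per the labels' protocols RNA was reverse transcribed, linearly amplified and labelled with biotin through T7. Neither the software behind the intensities nor their scaling is given in the sources used here. Array medians spanned 1.97 on the log2(value + 16) scale, above a limit of 0.5, so arrays were quantile normalized and log2(value + 16) was taken. The 66 control probe sets were left out, which leaves 12422, of which 10833 have 1 symbol in the platform annotation. All 86 symbols are those of RefSeq GRCm38.p6.

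Differences were tested two-sided with limma 3.58.1 under R 4.3.3, by lmFit and eBayes, with p-values adjusted after Benjamini and Hochberg across the 12422 probe sets and calls at an adjusted p below 0.05, fitted on the arrays of the kinds compared, without a block; errors of differences are the SE of the fit. The script was tested on simulated data. Members and lists were chosen with earlier results of these data known. Named in each comparison were up to 6 called genes a direction, by size, or the 3 furthest where none was called, with the brightest and dimmest, genes whose probe sets disagree, genes called against amplified RNA in both serum conditions, and a short list of well-studied Zfp genes.

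Same-numbered arrays were taken as pairs where every correlation of their deviations from the group means was over 0.1, a hint from the data that the titles do not explain. This held for serum in newly transcribed (0.80, 0.80, 0.76 and 0.70) and total RNA (0.70, 0.23, 0.47 and 0.57). It held for newly transcribed treated with amplified treated RNA (0.56 to 0.73) too. The same was true of amplified treated with newly transcribed starved (0.48 to 0.65) and with total treated RNA (0.14 to 0.30). Same numbers of both newly transcribed groups and of amplified treated RNA fell in the same array cluster. Pairs and clusters can thus not be told apart there. Number 3 of amplified starved RNA fell in the other cluster, with -0.39 to newly transcribed starved and -0.47 to amplified treated RNA. A planned grouping by protein domains was not run, since protein sequences were not used here. The number of arrays limits the precision.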

Additional observations from a re-analysis of the deposited data

Results flagged for a closer look

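In 7 of 95 groups of 4 arrays, over 19 Zfp genes, 1 array lay far from the other 3, where chance gives about 1 in 20, or 4.75 groups. The number after each gene is the gap to the nearest other array as a share of the range of the group. In total RNA, array 1 of Zfp105 read 79.0 in 1% serum, where the others read 128 to 134 (0.911), and 69.8 in 10% serum, where they read 114 to 122 (0.874). Array 1 of Zfp90 in 1% serum read 31.7 beside 50.7 to 54.5 (0.858). These 3 low values fall in replicate number 1 of total RNA.

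In newly transcribed RNA in 10% serum, array 1 of Zfp30 read 20.4 beside 37.0 to 39.1 (0.906), and array 4 of Zfp503 read 72.9 beside 13.9 to 16.2 (0.932). In total RNA in 1% serum, array 2 of Zfp503 read 0.574 beside 8.74 to 10.2 (0.875), and array 2 of Zfp42 read 7.52 beside 1.62 to 2.35 (0.859), both at intensities under the 16 that was added. Groups of 3 were not tested.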

How the results depend on the processing

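Directions held for most values: of the values of single genes under the alternatives, 1592 kept their direction and side of the threshold, 97 lost a call, 11 gained one and 9 changed sign. With values as deposited, counts of called Zfp genes fell from 12 and 10 to 0 and 0 against amplified RNA, from 31 to 14 against total RNA in 10% serum and from 16 to 1 for amplified against total RNA, while all probe sets moved by medians of 0.35 and 0.01, -0.09 and -0.10; for serum these medians were -0.18, 0.21 and 0.25 in newly transcribed, total and amplified RNA, beside -0.54, 0.12 and 0.23 for the Zfp genes. With a pseudocount of 1 the counts against amplified RNA were 7 and 5; with the replicate block 30 and 29 in all, of which the first rests on arrays that did not pair by number; with the array cluster as a block 42 and 38; within cluster 1 they were 0 and 0 and within cluster 2 34 and 36, the last of these chosen after seeing the data. The replicate block gave 3 serum calls in newly transcribed RNA and 0 without any one number, and in the other serum comparisons it changed no call. With the array cluster as the block there were 0 serum calls of Zfp genes in newly transcribed RNA. In the above-median filter 46 of the genes were tested, and 27 were called against total RNA in 1% serum. Where no count over all probe sets stands beside a count, its change cannot be read as particular to the Zfp genes.

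Leaving out 1 array gave 7 to 14 and 5 to 11 calls against amplified RNA, 36 to 44 and 24 to 32 against total RNA, 11 to 23 for amplified against total RNA, and 0 to 0 for serum and for the differences of responses. The signs that changed, with the cause not tested, were those of Zfp106 (newly transcribed against amplified RNA in 1% serum, 0.27 as deposited, and amplified against total RNA, -0.21 for the mean of its probe sets), and, as deposited, of the response differences of Zfp94 (-0.27 and -0.51), Zfp385a (-0.30) and Zfp322a (-0.23). Against amplified RNA that of Zfp94 ran from -0.36 (without amplified starved array 1) to 1.40 with 1 array left out, and that of Zfp322a from -0.39 (amplified starved array 3 left out; -0.11 with array 4 of newly transcribed treated RNA left out) to 1.33. None of these response differences was called. The dimmest 15 genes, under 16 in mean intensity, carry little information.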
